A study of Cicer arietinum with 18 samples.

Results

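Shoots of 3 chickpea (Cicer arietinum) genotypes were examined 3 h after treatment with aminocyclopropane carboxylic acid (ACC). These 3 samples, 1 for each of FLIP94-508C, ICC3996 and Lasseter, were chosen by their titles from the 18 samples of the series. The other 15 samples came from the same genotypes 27 h after ACC, and 3 h or 27 h after salicylic acid (SA) or methyl jasmonate (MeJA). All seedlings were 14 days old, stem and leaf were pooled, and the treated RNA was compared on a spotted 2-colour array with RNA of untreated plants of the same genotype. Each deposited column is the authors' mean over 3 biological replications with dye swaps. A genotype therefore has 1 value per array feature, with no error of its own, and the 3 genotypes served as the replicates of the treatment. The labels and design text used here give neither the dose of ACC nor how it was applied.

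ACC is the direct precursor of the gaseous hormone ethylene, into which plants convert it with the enzyme ACC oxidase. In Arabidopsis, ethylene receptors in the endoplasmic reticulum hold the pathway off until they bind the hormone, after which the transcription factor EIN3 accumulates and switches on ethylene response factors. The pathway acts in ripening, senescence and defence, and in defence often together with jasmonate. The 3 genotypes are known for different levels of resistance to ascochyta blight: Lasseter is the susceptible one, ICC3996 the resistant one, and FLIP94-508C is known as moderately resistant. The comparison of the genotypes asks whether their early response to the ethylene precursor differs in size and in the features that respond.

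The values are log2 ratios made by the authors with a shifted logarithm of unstated size, which pulls the ratios of dim spots towards 0. They are read as treated over control, which is likely from the order of the channels in the labels but is not stated for the column, so all signs rest on that reading. The array holds 715 experimental features, with identifiers of 3 kinds, 117 starting with CA, 156 with LS and 442 with U. None of them (0 of 715) matched the reference gene table, so features are given by identifier and no gene, pathway or tissue marker could be assigned. The 18 samples were unequal in spread, with an SD over features between 0.28 and 1.22.

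The early response to ACC differed in size between the genotypes. In FLIP94-508C 218 of 534 measured features (40.8%) were at least 2-fold from control, 56 higher (10.5%) and 162 lower (30.3%). In Lasseter 115 of 583 (19.7%) were, 19 higher (3.26%) and 96 lower (16.5%). In ICC3996 36 of 639 (5.63%) were, 9 higher (1.41%) and 27 lower (4.23%). Features below control outnumbered those above it in each genotype, and made up 83.5% of the 2-fold features of Lasseter, 75% of those of ICC3996 and 74.3% of those of FLIP94-508C. The order of the genotypes was the same at 1.5-fold, with 330, 216 and 96 features in FLIP94-508C, Lasseter and ICC3996, and at 3-fold, with 78, 47 and 12.

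The shape of the 3 distributions differed as well. The quartiles in FLIP94-508C lay at -1.17 and 0.38 around a median of -0.32, so that the bulk of the features was spread to both sides of control. In Lasseter they lay at -0.67 and 0.16 around a median of -0.0020, with a long lower side. In ICC3996 they lay at -0.33 and 0.08 around a median of -0.02. With 1 column for each genotype these sizes could not be tested. In the other 5 groups of compound and time the order was the same at 27 h after SA, where FLIP94-508C had 175 features, Lasseter 147 and ICC3996 101, and different elsewhere. At 27 h after ACC ICC3996 had 202 such features, Lasseter 145 and FLIP94-508C 138. At 3 h after SA Lasseter had 155, FLIP94-508C 56 and ICC3996 53, and at 3 h after MeJA ICC3996 had 20, Lasseter 13 and FLIP94-508C 8. At 27 h after MeJA ICC3996 had 64, FLIP94-508C 8 and Lasseter 4.

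**Figure D1:**
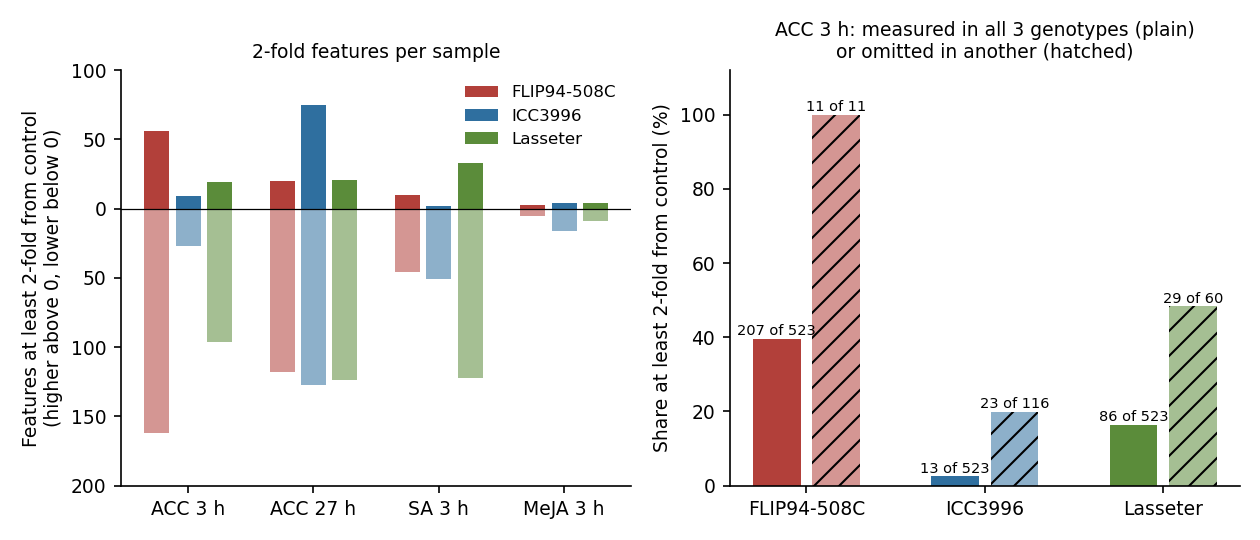
Left, number of features at least 2-fold above (bars up) or below control (bars down) in each sample after ACC at 3 h and 27 h and after SA and MeJA at 3 h, by genotype. Right, share of features (%) at least 2-fold from control at ACC 3 h among those measured in all 3 genotypes (plain) and those omitted in another genotype (hatched). FLIP94-508C has 218 such features at ACC 3 h, Lasseter 115 and ICC3996 36, and each hatched bar is above its plain one.

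Part of the 2-fold features lay among those that were measured in some genotypes and omitted in others. A total of 523 features had a value in all 3 ACC 3 h samples, 64 were omitted in 1, 59 in 2 and 69 in all 3. Among the 523, FLIP94-508C had 207 features (39.6%), Lasseter 86 (16.4%) and ICC3996 13 (2.49%) that were at least 2-fold from control. Of those measured in FLIP94-508C but omitted in another genotype, 11 of 11 were. The same held for 29 of 60 in Lasseter (48.3%) and 23 of 116 in ICC3996 (19.8%). For ICC3996 most of the 36 features of this size thus have no counterpart value in at least 1 other genotype. FLIP94-508C had the most omitted features, 181, against 132 in Lasseter and 76 in ICC3996. The part of spot quality in these sizes was not tested.

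Of the features at the ends of the 3 distributions, U277, U515 and U015 lacked a value in at least 1 genotype, and U089 and CA0709 had one in all 3. The highest value in both FLIP94-508C and ICC3996 was that of U277, at 3.39 and 1.93, and it had no value in Lasseter. U277 was measured in 6 of the 18 samples, and in FLIP94-508C it was at 4.07 at 27 h after ACC but at -4.72 at 3 h after SA. The lowest value in FLIP94-508C was that of U089, at -8.78. The lowest value in ICC3996 was that of U515, at -4.48, which was measured in that sample alone. The lowest value in Lasseter was that of U015, at -6.15, against 1.78 in ICC3996 and no value in FLIP94-508C. U015 was the feature with the strongest opposite values in a pair of genotypes, and it was measured in 5 of the 18 samples. The highest value in Lasseter was that of CA0709, at 2.23, which was measured in all 6 ACC samples. Features with few values thus held 4 of the 6 extremes, U277 counting for both genotypes in which it was highest.

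The content of the response was compared over the 523 features measured in all 3 genotypes. FLIP94-508C and ICC3996 did not share a profile: the Pearson correlation across features was -0.08 and the Spearman correlation -0.17, and 46.3% of features had the same sign. Lasseter resembled both. Its Pearson correlation with FLIP94-508C was 0.37, with 63.3% of features of the same sign, and with ICC3996 0.38, with 69.6%. Features are not independent replicates, and each column stands on its own plants and controls, so these correlations are descriptions. At 27 h after ACC the pair of FLIP94-508C and ICC3996 had the highest of the 3 correlations, 0.74 over 562 features, against 0.39 for FLIP94-508C with Lasseter and 0.44 for ICC3996 with Lasseter.

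Lists of equal length compare the genotypes by rank and not by a fold threshold. They do not remove the effect of size, because 5 of the 523 features were 2-fold higher in ICC3996 and 8 lower. Most members of its lists were therefore under 2-fold. The 50 lowest features of FLIP94-508C and of ICC3996 shared 6 and the 50 highest shared 3, where 50 features are 9.56% of all 523. FLIP94-508C and Lasseter shared 13 of the lowest (26.0%) and 16 of the highest (32.0%). ICC3996 and Lasseter shared 14 of the lowest (28.0%) and 19 of the highest (38.0%). By rank, then, the lists of Lasseter overlapped with those of each other genotype by more than the share of all features, and the lists of FLIP94-508C and ICC3996 stayed near it.

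**Figure D2:**
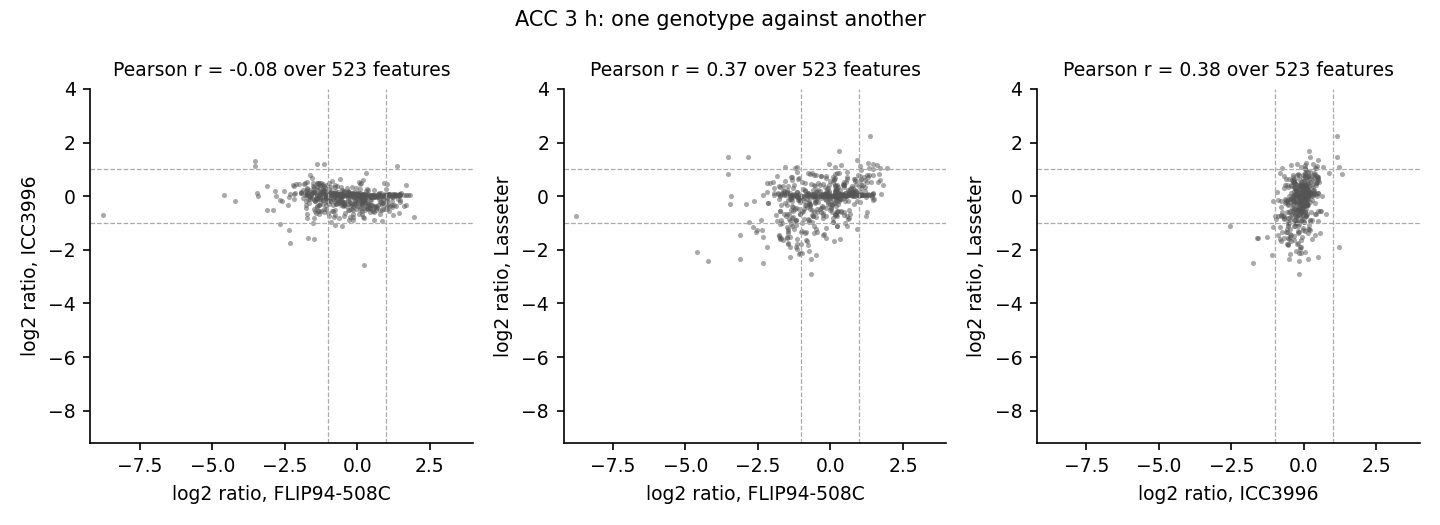
Each point is 1 of 523 array features, with its log2 ratio 3 h after ACC in one genotype against another, and dashed lines mark 2-fold. The cloud of FLIP94-508C against ICC3996 is flat (Pearson r -0.08), and both clouds with Lasseter tilt upwards (0.37 and 0.38).

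Reading the size classes of FLIP94-508C in the other genotypes gave the same contrast. The 27 features that were at least 4-fold lower in FLIP94-508C had a median of -0.75 in Lasseter and of 0.03 in ICC3996. The 125 features between 2-fold and 4-fold lower had medians of -0.15 in Lasseter and 0.04 in ICC3996. The 55 features at least 2-fold higher in FLIP94-508C had a median of 0.34 in Lasseter and of 0.03 in ICC3996. In Lasseter 7 of them were below 0 (12.7%, against 45.7% of all 523). There 9 were 2-fold higher (16.4%, against 3.63% of all). In ICC3996 23 were below 0 (41.8%, against 49.7% of all), which is near the share of all features. There 1 was 2-fold higher (1.82%, against 0.956% of all). In Lasseter the medians followed the order of the FLIP94-508C classes, and in ICC3996 they stayed between -0.04 and 0.04 in all 5 classes. Seen from Lasseter, the 55 features between 2-fold and 4-fold lower there had a median of -1.24 in FLIP94-508C and of -0.34 in ICC3996. In ICC3996 45 of them were below 0 (81.8%, against 49.7% of all 523).

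**Figure D3:**
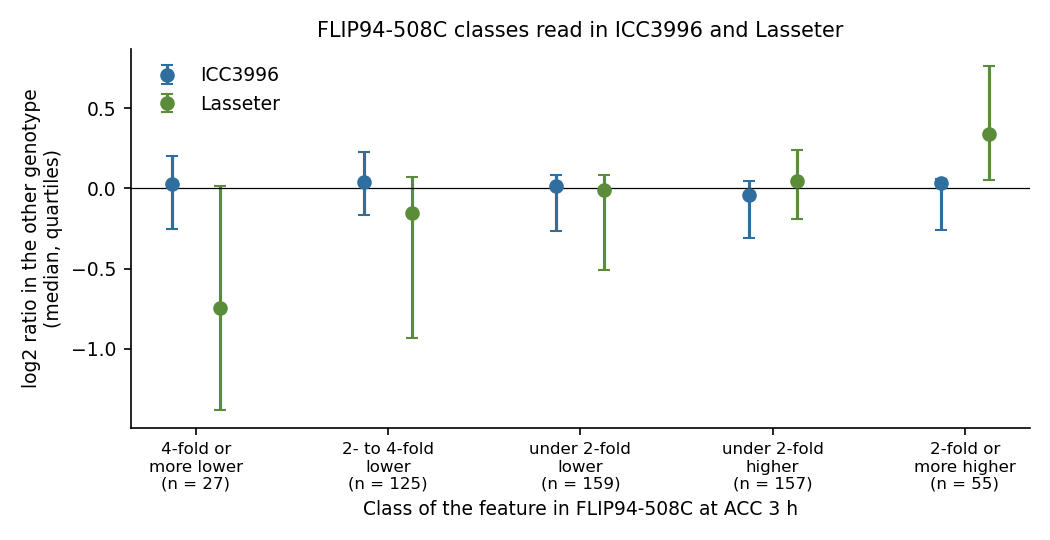
Features were put into 5 classes by their value in FLIP94-508C 3 h after ACC (x axis, number of features in brackets), and points give the median log2 ratio of the class in ICC3996 and in Lasseter with bars from the lower to the upper quartile. The Lasseter medians run from -0.75 to 0.34, and those of ICC3996 stay near 0.

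Most features with a 2-fold change had it in 1 genotype only. Of the 523 features, 285 were under 2-fold in all 3 genotypes, 179 were 2-fold in exactly 1, 50 in 2 and 9 in all 3. FLIP94-508C accounted for 150 of the 179, Lasseter for 28 and ICC3996 for 1. These counts run in the order of size, with 39.6%, 16.4% and 2.49% of the 523 at least 2-fold from control in these genotypes. The number to be had from these shares alone was not worked out. FLIP94-508C and Lasseter were both 2-fold lower for 42 features, which are 27.6% of the FLIP94-508C list and 62.7% of the Lasseter list. Over all 523 features 12.8% were 2-fold lower in Lasseter and 29.1% in FLIP94-508C. They were both 2-fold higher for 9, which are 16.4% of the FLIP94-508C list, against 3.63% of all features in Lasseter, and 47.4% of the Lasseter list, against 10.5% of all in FLIP94-508C. Among features 2-fold in both members of a pair, the directions were opposite for 5 of 56 between FLIP94-508C and Lasseter, 4 of 10 between FLIP94-508C and ICC3996 and 1 of 11 between ICC3996 and Lasseter. Of the 5 features 2-fold higher in ICC3996, 4 were 2-fold lower in FLIP94-508C and 1 was 2-fold higher. In sign, whatever the size of the value, 122 features were below control in all 3 genotypes, 85 were above it and 316 were mixed.

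Of the 9 features that were 2-fold in all 3 genotypes, 6 had the same direction, 5 lower and 1 higher. In the order FLIP94-508C, ICC3996 and Lasseter, CA0810 was at -2.31, -1.74 and -2.50, and at 27 h at -0.95, -2.31 and -2.14. CA0651 was at -1.69, -1.57 and -1.55 at 3 h, the closest agreement of the features named here, and at -1.29, -0.89 and -1.15 at 27 h. CA0709 alone was 2-fold higher in all 3, at 1.38, 1.14 and 2.23, and at 27 h it was at 2.45, 1.45 and 1.98. All 6 ACC samples thus had CA0709 at least 2-fold above control and CA0651 and CA0810 below it. At 3 h after MeJA CA0709 was at -0.08, -0.11 and 0.36, and at 3 h after SA it had a value in 1 sample, at -0.10.

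The mean response over the genotypes was tested against 0 with limma, on the whole table of 18 samples and with a genotype term. This fit took features with 2 or more values in every group of compound and time. They also number 523, but are not the same set as the 523 with a value in all 3 ACC 3 h samples. Of these, 4 (0.765%) passed an adjusted p of 0.05, all 4 of them lower, and 100 had an unadjusted p under 0.05. U055 fell by 1.71 on the log2 scale (SE 0.33, 3.27-fold, adjusted p = 0.0462), from -2.34, -1.28 and -1.52 in the order above. CA0651 fell by 1.60 (SE 0.32, 3.04-fold, adjusted p = 0.0462). All 3 genotypes were below control for both, which was a condition for naming them. The other 2, named after their values were seen, were less even. U146 (mean -1.39, SE 0.29, adjusted p = 0.0462) was at -0.09 in ICC3996 but at -2.18 in FLIP94-508C and -1.91 in Lasseter. U464 (fitted mean -2.45, SE 0.43, adjusted p = 0.0462) had no value in FLIP94-508C and was at -1.56 in ICC3996 and -3.36 in Lasseter.

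No feature passed as higher. The largest positive means of one sign in all 3 genotypes were those of U497, at 1.69, 0.42 and 1.05 (mean 1.05 ± 0.64, SD, n = 3, adjusted p = 0.0544), and of LS0493, at 1.61, 0.03 and 1.18 (0.94 ± 0.82, SD, n = 3, adjusted p = 0.152). For both, ICC3996 was the lowest of the 3. Calls rested on single samples: 96 features passed without the ICC3996 sample, 24 higher and 72 lower, and 0 in limma without the FLIP94-508C or without the Lasseter sample (55 and 72 at an unadjusted p under 0.05). CA0810 and CA0709 were outside this fit, because they had a value in 1 SA sample at 3 h. In the fit without that filter 13 passed in all, among them all 6 features that were 2-fold in 1 direction in all 3 genotypes. CA0709 had a log2 ratio of 1.58 (SE 0.23, adjusted p = 0.0120) and CA0810 of -2.18 (SE 0.31, adjusted p = 0.0150). These 6 were picked by the same 3 values that the fit tests, so their passing is no separate support.

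The genotypes were then compared with each other feature by feature. Because each has 1 column at 3 h, the spread was taken from the other 15 samples, and the lone columns were assumed to vary like those. Of 499 features, ICC3996 differed from FLIP94-508C for 36 (7.21%), 33 higher (6.61%) and 3 lower (0.601%) in ICC3996. Lasseter differed from FLIP94-508C for 28 (5.61%), 24 higher (4.81%) and 4 lower (0.802%) in Lasseter. With sample medians subtracted the splits were 21 higher and 7 lower, and 6 higher and 3 lower. Between ICC3996 and Lasseter limma called 0, and 28 features had an unadjusted p under 0.05. The lists against FLIP94-508C shared 20 features, 55.6% of the first and 71.4% of the second, in the same direction for 20 of 20, and both comparisons use the same FLIP94-508C column.

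The features called against FLIP94-508C were mostly ones that were low in that genotype and near control in the other. All 33 features that were higher in ICC3996 were at least 2-fold below control in FLIP94-508C, with a median of -1.95, and 32 of them were under 2-fold in ICC3996, with a median of 0.12. All 24 that were higher in Lasseter were at least 2-fold below control in FLIP94-508C, with a median of -1.90, and 22 were under 2-fold in Lasseter. Of the 523 features with all 3 values, 29.1% were 2-fold lower in FLIP94-508C. In ICC3996 2.49% of them were 2-fold from control, and in Lasseter 16.4%. Being under 2-fold in ICC3996 was thus no trait of the called features, since nearly all features were. Features called as higher were picked by their difference from the FLIP94-508C column, so low values there are no separate trait either. U089 had the largest difference, at -8.78 in FLIP94-508C and at -0.68 and -0.75 in ICC3996 and Lasseter. ICC3996 was higher by 8.09 (SE 0.63, adjusted p = 0.000348) and Lasseter by 8.03 (SE 0.63, adjusted p = 0.000370). At 27 h after ACC U089 was at -0.70, -1.05 and 0.06, so the value of the FLIP94-508C sample at 3 h was far below those of the other ACC samples.

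U136 went in opposite directions, at -3.52 in FLIP94-508C but at 1.13 and 1.46 in ICC3996 and Lasseter. ICC3996 was higher by 4.65 (SE 1.19, adjusted p = 0.0382) and Lasseter by 4.98 (SE 1.19, adjusted p = 0.0405). By 27 h U136 was below control in all 3 genotypes, at -1.22, -3.37 and -0.14. Among features lower than in FLIP94-508C, U319 in ICC3996 differed by -2.77 (SE 0.70, adjusted p = 0.0377), from 0.22 in FLIP94-508C to -2.55, with Lasseter at -1.12. CA1197 differed by -1.68 (SE 0.42, adjusted p = 0.0358), since it was at 1.74 in FLIP94-508C and at 0.06 in ICC3996 and 0.07 in Lasseter. In Lasseter U455 differed from FLIP94-508C by -2.16 (SE 0.40, adjusted p = 0.0202), at -1.24 against 0.92. LS0975 differed by -1.92 (SE 0.47, adjusted p = 0.0405), at -1.58 against 0.34.

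Between Lasseter and ICC3996 the features with the largest differences did not pass. U269 was at -1.91 in Lasseter and 1.20 in ICC3996, a difference of -3.11 with a 95% interval from -5.11 to -1.11 (adjusted p = 0.381). U458 was at -2.35 and 0.16, a difference of -2.51 with an interval from -3.96 to -1.06 (adjusted p = 0.381). In the other direction CA0756 was higher in Lasseter by 1.80 (interval 0.04 to 3.56, adjusted p = 0.849) and CA0106 by 1.66 (interval -0.59 to 3.92, adjusted p = 0.999). The median SE of a difference was 0.54, so a feature needed a large difference to pass, and a missed threshold is no sign that Lasseter and ICC3996 acted alike. The calls against FLIP94-508C changed with the scaling. When all samples were scaled to equal spread both counts were 0 in limma (86 and 44 features at an unadjusted p under 0.05). On that scale ICC3996 minus FLIP94-508C was 3.68 for U089, 4.14 for U136, -4.95 for U319 and -0.87 for CA1197. Lasseter minus FLIP94-508C was 4.30 for U089, 3.34 for U136, -1.66 for U455 and -1.64 for LS0975. Equal spread multiplies each sample by a positive factor, so a difference between values of opposite sign (U136, U319, U455 and LS0975) could not turn. Without scaling, and with the spread taken without the MeJA samples, the counts were 3 and 1, U089 being called in both.

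Features of the 3 identifier kinds were compared within each genotype. LS features were omitted most often, with 74 of 156 (47.4%) missing from FLIP94-508C, 50 (32.1%) from Lasseter and 23 (14.7%) from ICC3996, against 25.3%, 18.5% and 10.6% of all features. Measured LS features were lower in FLIP94-508C (median -0.64 against -0.32 for all features) and Lasseter (-0.42 against -0.0020), and near the rest in ICC3996 (-0.05 against -0.02). In FLIP94-508C 33 of 82 LS features (40.2%) were 2-fold lower and 1 (1.22%) was 2-fold higher, where over all features the shares were 30.3% and 10.5%. In Lasseter 26 of 106 (24.5%) were 2-fold lower, against 16.5%. CA features held 14 of 105 (13.3%) that were 2-fold higher in FLIP94-508C and U features 41 of 347 (11.8%).

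Each early sample was next set beside the late ACC samples, which the design describes with control tissue of their own time. FLIP94-508C at 3 h resembled its own 27 h sample, with a Pearson correlation across features of 0.58, and as closely that of ICC3996 at 27 h, with 0.62, but less that of Lasseter, with 0.20. ICC3996 at 3 h did not resemble its own late sample (-0.0035) or that of FLIP94-508C (-0.03), and its correlation with Lasseter at 27 h was 0.44. Lasseter at 3 h had correlations between 0.20 and 0.32 with the late samples. Of the 3 genotypes, FLIP94-508C was therefore the one whose early profile was closest to its later one.

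**Figure D4:**
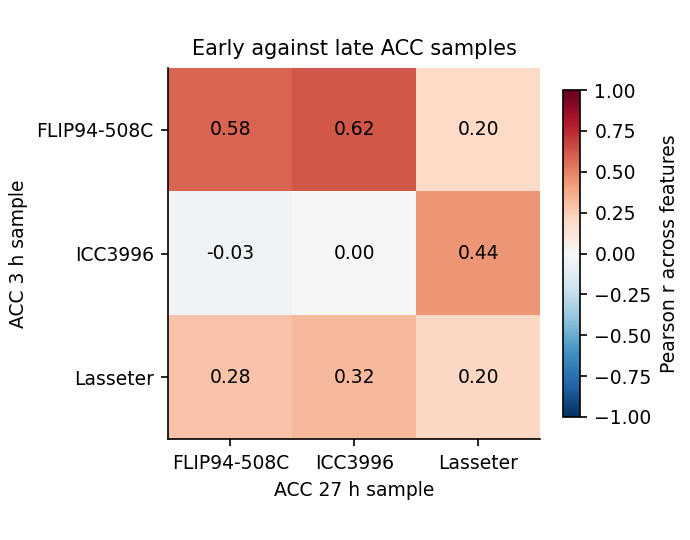
Pearson correlation across features between each ACC 3 h sample (rows) and each ACC 27 h sample (columns), on a colour scale from -1 to 1. FLIP94-508C at 3 h is closest to ICC3996 and FLIP94-508C at 27 h (0.62 and 0.58), and ICC3996 at 3 h is near 0 with both.

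Feature by feature, some early values were kept. Of 159 features 2-fold lower at 3 h and measured at both times in FLIP94-508C, 54 (34.0%) were 2-fold lower at 27 h, where 15.5% of the features measured at both times were. In Lasseter 32 of 85 (37.6%) were, against 16.5%, and in ICC3996 6 of 11, against 21.4%. The 56 features 2-fold higher in FLIP94-508C at 3 h had a median of 0.58 at 27 h, and 12 of them (21.4%) were still 2-fold higher, against 3.59%. In Lasseter 3 of 18 such features (16.7%) were still 2-fold higher, against 3.54%. In ICC3996 1 of 7 was (14.3%), against 75 of 575 features measured at both times, and 5 of the 7 were 2-fold lower at 27 h.

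The means at 3 h and 27 h after ACC differed for 1 of 523 features (0.191%) in limma. At 3 h LS0185 was near control in ICC3996 (0.39) and below it in Lasseter (-1.43) and FLIP94-508C (-3.12), and at 27 h the genotypes in the order above were at 1.90, 2.70 and 2.41. The early mean was lower by 3.72 on the log2 scale (95% interval of early minus late from -5.02 to -2.43, adjusted p = 0.0153). The groups did not overlap, but LS0185 was picked by this difference, and the share of all features without overlap was not counted. The SD over the genotypes was 1.76 at 3 h and 0.41 at 27 h (n = 3). In the other direction no feature passed, and U107 was closest in size, at -1.45, -0.20 and -1.30 at 3 h and at -2.23, -2.42 and -4.23 at 27 h (difference 1.98, SE 0.55, adjusted p = 0.144). LS0263 was at -0.66, -0.26 and 0.44 and then at -3.63, -0.09 and -2.47 (difference 1.90, SE 0.81, adjusted p = 0.321). LS0185 lost its call in 5 of the 9 fits made with 1 sample or 1 genotype removed, and with equal spread (adjusted p = 0.207).

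**Figure D5:**
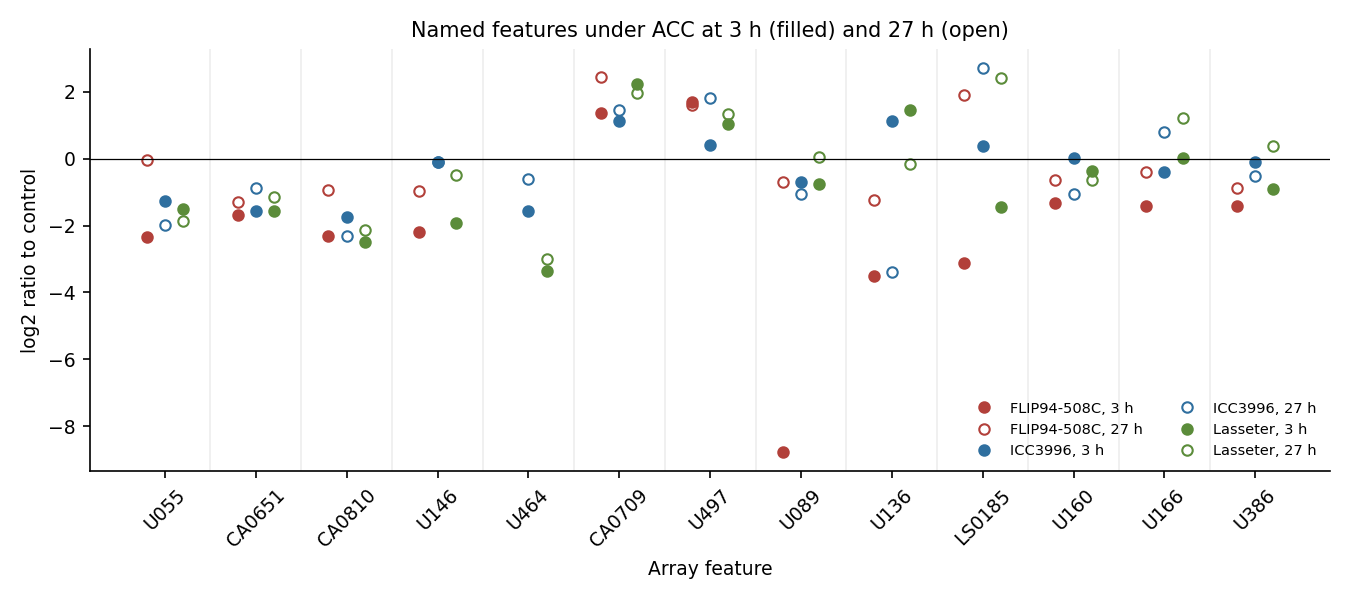
Log2 ratio to control of 13 named features (x axis) in each genotype 3 h (filled) and 27 h (open) after ACC. CA0651, CA0810 and CA0709 keep their side of control in all 6 samples, U089 is far below the others in FLIP94-508C at 3 h, and the open points of LS0185 are all above its filled ones.

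Against the other compounds at 3 h, ACC differed from SA for 3 of 523 features (0.574%). The labels do not say whether plants under different compounds shared untreated controls, and a shared control cancels in such a difference. U166 was at -1.40, -0.39 and 0.03 after ACC in FLIP94-508C, ICC3996 and Lasseter, and after SA at -3.20 in ICC3996 and -4.28 in Lasseter, with no value in FLIP94-508C (difference 3.28, SE 0.54, adjusted p = 0.0120). U160 was at -1.31, 0.04 and -0.38 after ACC, and after SA at -4.04 in ICC3996 and -3.37 in Lasseter (difference 3.16, SE 0.49, adjusted p = 0.0120). Both were far below control after SA in each genotype measured and nearer to it after ACC. U386 was lower after ACC, at -1.40, -0.09 and -0.92, than after SA, at 0.80, 0.53 and 1.35 (difference -1.70, SE 0.33, adjusted p = 0.0308). The groups did not overlap for these 3 features, but they were picked by this difference, and U166 and U160 had 2 values after SA. The share of all features without overlap was not counted. Of the 9 fits with 1 sample or genotype removed, U166 and U160 lost their calls in 4 each and U386 in 6. With equal spread U166 passed (adjusted p = 0.0293), and U160 (adjusted p = 0.0586) and U386 (adjusted p = 0.167) did not. With the ICC3996 sample at 3 h after ACC left out 31 features passed, and 0 did in limma without the Lasseter sample after ACC or after SA (36 and 38 at an unadjusted p under 0.05).

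ACC and MeJA at 3 h differed for 0 of 523 features in limma. An unadjusted p under 0.05 was found for 30, and 21 passed without the ICC3996 ACC sample. The largest differences did not pass. U102 was at 1.39, -0.09 and 0.51 after ACC and at -0.49, -0.86 and -0.51 after MeJA (difference 1.23, SE 0.30, adjusted p = 0.332). CA0878 was at 0.92, 0.48 and 1.34 after ACC and at -0.41, -0.06 and -0.35 after MeJA (1.19, SE 0.39, adjusted p = 0.497). For these features, which were picked by their difference, all ACC samples were above all MeJA samples. How many of all features were apart in this way was not counted. LS0451 was at -4.21, -0.16 and -2.40 after ACC against 0.38, -0.62 and -0.01 (difference -2.17, SE 0.72, adjusted p = 0.497), and U212 at -3.46, 0.12 and -0.28 against 0.38, 0.23 and 1.88 (-2.03, SE 0.73, adjusted p = 0.550). The ICC3996 value of LS0451 after ACC lay within the MeJA range.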

How the data were processed

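Log2 ratios of 18 samples on a spotted 2-colour array were used as the authors deposited them. Per the series' design text, the authors scanned and quantified the spots, subtracted local background, omitted flagged spots, applied Lowess normalisation, formed Cy5/Cy3 ratios, took a shifted log2 and combined duplicate spots. Per the labels, a column averages 3 biological replications with dye swaps. Single replications were not used here.

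Control features (12) were left out. With limma 3.58.1 in R 4.3.3, 6 group means and a genotype term were fitted over 523 features with at least 2 values per group (10 residual degrees of freedom before missing values). Genotype differences at 3 h used 499 features with all 3 values, with the spread from the other 15 samples (8 residual degrees of freedom). All tests were two-sided, and p-values were adjusted by Benjamini-Hochberg over every feature in the fit. P-values of group means rest on uneven response over the genotypes, pooled over all 6 groups, together with measurement error. Those of genotype differences at 3 h rest on that spread in the other 15 samples.

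The same genotypes recur in every group, which is the pairing behind the genotype term. Fits were tested on simulated data in which a feature had the same spread in all samples. The unequal spread of the real samples was therefore not covered by that test. Arrays give no read depth, and their number and omitted spots limit the precision. Named features are at most 2 per direction and comparison, by size of change among those that passed, or the largest that did not pass. For the response they needed values of one sign in all 3 genotypes, apart from the 2 named after their values were seen. The extremes of single samples and the largest shared and opposite changes were added. The comparisons, lists and rules were chosen with earlier results of these data known. The alternatives were other scalings, weights, filters, sample sets and the methods' t-test. Gene lists set out by description could not be matched, since no identifier had one.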

Additional observations from a re-analysis of the deposited data

Results flagged for a closer look

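The genotypes differed in their values at 3 h after ACC by a test of the difference itself, with 36 features for ICC3996 against FLIP94-508C and 28 for Lasseter against FLIP94-508C. As differences from FLIP94-508C on the log2 scale, ICC3996 was at 8.09 for U089, 4.65 for U136, -2.77 for U319 and -1.68 for CA1197. Lasseter was at 8.03 for U089, 4.98 for U136, -2.16 for U455 and -1.92 for LS0975. Both comparisons rest on the single FLIP94-508C sample, whose SD over features was 1.19 against 0.51 in ICC3996 and 0.88 in Lasseter. With all samples at equal spread neither comparison had a call (0 in limma for both, with 86 and 44 features at an unadjusted p under 0.05). The part of that sample's wider spread in the calls was not tested.

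Between times and compounds the tested differences of the ACC 3 h mean were -3.72 for LS0185 against ACC at 27 h, and 3.28 for U166, 3.16 for U160 and -1.70 for U386 against SA at 3 h. Groups of 3 samples are too small to search for a sample far from the others.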

How the results depend on the processing

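With 1 value per genotype, the tests rest on few samples, on their unequal spread and on omitted spots. The response at 3 h had 4 calls. It had 7 with sample medians subtracted, 14 over features measured in all 18 samples, 13 with no filter, 125 with sample weights, and 0 with the 6 ACC samples alone, with the 3 alone, with a variance trend and by the methods' t-test, which had 11 before adjustment (42 to 103 unadjusted in limma for the other 3). Leaving out a sample or a genotype gave 0 to 96. The difference from ACC at 27 h had 1 call, 83 with sample weights, 0 with equal spread and 0 in the 2 groups alone (54 and 25 unadjusted), and 0 to 19 on leaving out. That from SA at 3 h had 3, 2 with equal spread, 6 with sample medians subtracted, 30 with weights, 0 over features measured in all samples and 0 in the 2 groups alone (48 and 20 unadjusted), and 0 to 31 on leaving out. That from MeJA at 3 h had 0, 3 with equal spread, 52 with weights, and 0 to 21 on leaving out.

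The replicate block is the genotype term. Without it (no replicate block) the counts were 3 for the response, 5 against ACC at 27 h, 5 against SA and 0 against MeJA, and 36, 31 and 0 for ICC3996 against FLIP94-508C, Lasseter against FLIP94-508C and Lasseter against ICC3996. ICC3996 against FLIP94-508C had 36 calls, 0 with equal spread, 3 without the MeJA samples and 25 without Lasseter. With sample medians subtracted 28 passed, 21 higher and 7 lower, against 33 and 3. Lasseter against FLIP94-508C had 28, 9 with medians subtracted (6 higher and 3 lower, against 24 and 4), 0 with equal spread, 1 without the MeJA samples and 4 without ICC3996. Lasseter against ICC3996 had 0 in all 6 alternatives, with 19 to 40 unadjusted. None of the named features that were refitted under the alternatives turned sign. U146, U464, U277, U515, U015, CA0709 and CA0810 were not among these, beyond the fit with no filter for CA0709 and CA0810. An unchanged sign says little here, because many alternatives cannot alter the estimate. For the genotype differences only median subtraction and equal spread can. Equal spread cannot turn the sign of a difference between values on opposite sides of 0. The response mean of a feature with all 3 values stays the same under other filters, a variance trend and the methods' t-test.

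At 1.5-fold and 3-fold the counts of changed features were 330 and 78 in FLIP94-508C, 96 and 12 in ICC3996 and 216 and 47 in Lasseter, and over features measured in all 3 samples ICC3996 had 13. At 1.5-fold 15 features were lower in all 3 genotypes, and with equal spread 0 were 2-fold higher in all 3. The cause of these changes was not tested beyond what each alternative alters by construction.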

Other observations

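In each of the 18 samples, features omitted in at least 1 other sample were more often 2-fold from control than the 444 measured everywhere. The shares ran from 0.225% to 36.9% among the features measured everywhere and from 2.04% to 60.0% among the others. In ICC3996 3 h after ACC they were 0.676% and 16.9%, in Lasseter 12.8% and 41.7%, and in FLIP94-508C 36.9% and 60.0%. For ICC3996 3 of 444 features measured in every sample were 2-fold from control, against 33 of the other 195.

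The array holds 3 features with NORMCON in their name, which were in no comparison. At 3 h after ACC, in the order FLIP94-508C, ICC3996 and Lasseter, NORMCON2 was at 0.01, 0.06 and -0.01, and NORMCON4 at -0.28, 0.08 and 0.05. NORMCON3 was at -2.33, -0.71 and -2.33, and over the 16 samples with a value it ran from -2.83 to 0.29.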
